A study of Mus musculus with 2 samples.

Results

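The 10 genes described here, Ccn1, Ccn2, Ankrd1, Amotl1, Amotl2, Ajuba, Axl, Nuak2, Ptpn14 and Wwc1, are textbook targets of the transcription factor complex of YAP or TAZ with TEAD. They were followed through their accessible regions, the merged regions of the deposited count tables with at least 20 counts summed over both libraries whose nearest protein-coding gene, within 50 kb of its span, is 1 of the 10. There were 115 such regions, of 109257 merged regions in all and of 81252 regions that could be assigned to some gene by the same rule. A further 12 regions near these genes had fewer than 20 counts.

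YAP and TAZ are transcriptional coactivators that enter the nucleus when the Hippo kinase cascade is quiet, as it often is in stretched or spread cells, and bind DNA through TEAD transcription factors. Ccn1 and Ccn2 encode secreted matricellular proteins, Ankrd1 an ankyrin repeat protein, Axl a receptor tyrosine kinase and Nuak2 an AMPK-related kinase. The others feed back on the pathway. Amotl1 and Amotl2 encode angiomotin-like scaffolds that bind YAP, Ajuba a LIM protein that restrains LATS kinases at junctions, Ptpn14 a phosphatase that binds YAP, and Wwc1 (Kibra) a scaffold that promotes LATS activity. In epidermis, YAP activity is known to favour the proliferation of basal cells.

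ATAC-seq uses the transposase Tn5, which inserts adapters into accessible chromatin, and was applied here to basal keratinocytes from mouse back skin. The cells came from the epidermis between hair follicles and were sorted as positive for ITGA6, an integrin of basement membrane contacts, and negative for CD34, a bulge stem cell marker. The stretched library came from 1 CD1 mouse whose skin had undergone force-mediated expansion, and the control library from 1 untreated CD1 mouse, with 10000 sorted cells each. CD1 is an outbred stock. The sources used here give no age or sex and state no length of expansion, and the title of the stretched sample carries a code, D2, that they do not explain. There were no replicates, so no test was possible, and every interval below is an exact 95% interval of counting error alone.

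The stretched library held 11803785 counts over all regions and the control library 8820178. Of these, 10 regions with over 10000 counts each took 48.9% in the stretched and 34.5% in the control library, and none of the 10 was a region of a target gene. Counts were scaled by TMM, which set the stretched library at 0.946 of the control. The marker list of basal epidermis had 88 regions over all 6 of its genes, with 5601 stretched and 5448 control counts, a fold (stretched over control) of 1.09 (1.05 to 1.13). This list was itself split, with intervals above 1 for 3 genes (Krt14, Trp63 and Itga6). The interval lay below 1 for Col17a1 (0.891, 0.809 to 0.981) and held 1 for Krt5 (0.979) and Itgb4 (0.974). Lists of other cell types were smaller, and their summed folds lay between 0.815 (fibroblast, 540 stretched and 700 control counts) and 0.926 (leukocyte, 284 and 324). All assigned regions with under 100 counts also had a summed fold of 0.926. The median count per region ran from 37.5 (leukocyte) to 95 (bulge) in these lists and was 75.5 in the basal list. All marker lists were run under TMM alone. The suprabasal list stood at 0.873 (0.800 to 0.952), the bulge list at 0.920 (0.874 to 0.967), the endothelial list at 0.901 (0.821 to 0.988) and the melanocyte list at 0.915 (0.850 to 0.984), the interval of the fibroblast list ran from 0.727 to 0.913, and that of the leukocyte list held 1 (0.787 to 1.09). No region was assigned to Tyr, which encodes the melanocyte enzyme tyrosinase. Within the suprabasal list the differentiation keratins were lowest, Krt10 at 0.598 (216 stretched and 382 control counts) and Krt1 at 0.629 (165 and 277), while Lor and Ivl stood at 1.24 and 1.22. Other lists were split too, with intervals above 1 at Cd34 (1.39), the marker the cells were sorted against, Cdh5 (1.43), Dcn (1.69) and Cd74 (1.57). Their part in the results on the target genes was not tested, and a smaller share of cells of a type cannot be told apart from less open chromatin in each cell.

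RefSeq promoter windows on GRCm38.p6, from 250 bases before to 50 bases after the start site, were found for 8 of the 10 genes. The core of the TEAD motif, GGAATG on either strand, occurred in 6 of the 8 windows, against 14.7% of all 32851 windows of the same length. It occurred once each in Ccn1, Amotl2, Axl and Ptpn14 and at 2 positions each in Ankrd1 and Ajuba, and the windows of Amotl1 and Wwc1 had none. The AP-1 motif TGANTCA, which occurred in 7.81% of all windows, and the CArG box bound by SRF, in 1.63%, were found in 0 of the 8, and neither motif contains the TEAD core. A match is a stretch of letters and not evidence of binding. The windows of 4 genes are printed, chosen because Ccn1 and Ptpn14 carry the changes described below and because Ankrd1 and Ajuba hold the core at 2 positions each. They run 5′ to 3′ on the gene's strand, and capitals mark the TEAD core.
Ccn1 (chr3:145649936-145650235, minus strand): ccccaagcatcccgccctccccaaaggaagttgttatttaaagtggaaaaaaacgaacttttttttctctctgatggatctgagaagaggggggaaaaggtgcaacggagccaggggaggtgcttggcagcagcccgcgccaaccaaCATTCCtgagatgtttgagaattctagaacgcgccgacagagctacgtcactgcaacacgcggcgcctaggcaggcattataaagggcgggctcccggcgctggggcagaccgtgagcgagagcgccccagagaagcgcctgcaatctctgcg
Ankrd1 (chr19:36119795-36120094, minus strand): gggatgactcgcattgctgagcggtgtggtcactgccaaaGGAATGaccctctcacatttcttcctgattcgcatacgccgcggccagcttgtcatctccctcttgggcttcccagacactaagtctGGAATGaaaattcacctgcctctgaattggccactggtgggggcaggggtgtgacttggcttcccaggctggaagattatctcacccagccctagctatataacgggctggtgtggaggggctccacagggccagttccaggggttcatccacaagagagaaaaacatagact
Ajuba (chr14:54577612-54577911, minus strand): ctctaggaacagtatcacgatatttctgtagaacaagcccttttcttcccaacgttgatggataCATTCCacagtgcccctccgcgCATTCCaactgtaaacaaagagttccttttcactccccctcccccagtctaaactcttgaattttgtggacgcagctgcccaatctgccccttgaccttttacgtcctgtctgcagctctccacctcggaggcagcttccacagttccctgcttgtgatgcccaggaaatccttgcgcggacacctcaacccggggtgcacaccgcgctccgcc
Ptpn14 (chr1:189728018-189728317, plus strand): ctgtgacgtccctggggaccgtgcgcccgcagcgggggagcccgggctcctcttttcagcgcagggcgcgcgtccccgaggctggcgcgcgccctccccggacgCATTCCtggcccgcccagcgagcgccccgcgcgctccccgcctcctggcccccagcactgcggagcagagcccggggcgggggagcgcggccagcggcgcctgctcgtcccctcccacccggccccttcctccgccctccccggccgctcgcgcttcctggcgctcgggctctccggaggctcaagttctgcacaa
Counted from the start site, the core began at position -103 in Ccn1, at -210 and -123 in Ankrd1, at -186 and -164 in Ajuba, and at -146 in Ptpn14. In the windows not printed it began at -65 in Amotl2 and at -233 in Axl.

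Viewed as a set, the target genes did not move one way. A region was called where its fold was at least 2 in either direction and its interval excluded 1. By that measure 7 of the 115 regions were higher in the stretched library and 8 were lower. These were 6.09% and 6.96% of the regions, beside 6.90% and 8.66% of all assigned regions. The interval lay above 1 at 21 regions and below 1 at 16, beside 18.6% and 15.8% of all assigned regions. The median fold of the 115 regions was 0.982, against 0.995 for all assigned regions. By gene, the fold of the summed count ranged from 0.773 (Nuak2) to 1.43 (Ccn1), and none of the 10 genes reached 2-fold, a size that 4.71% of all genes reached upward and 2.60% downward. The interval lay above 1 for 3 genes (Ccn1, Amotl1 and Ajuba), below 1 for 2 (Nuak2 and Ptpn14) and held 1 for 5, whereas it lay above 1 for 36.1% of all 16949 genes with a region and below 1 for 18.6%. The target genes held more regions each on average than all genes, and intervals narrow with counts. The split of calls moved with the scaling, in the target genes as in all regions. Scaling by all counts lowers every log2 fold by 0.50 and gave 0 higher and 20 lower regions of the target genes (0% and 17.4%), beside 1.47% and 23.4% of all assigned regions. Totals taken without the 10 large regions gave 3 and 11 (2.61% and 9.57%), beside 4.63% and 11.7%. Over all assigned regions the median fold was 1.10 at 100 counts or more and 0.913 under 100, so folds were also computed after removing that trend. The corrections were a lowess curve on the count, and the median fold within classes of count and gene density. Both corrections gave 9 higher and 7 lower regions (7.83% and 6.09%). Of all assigned regions, 6.96% were higher and 7.45% lower with the lowess curve removed, and 7.06% and 6.70% with the medians removed.

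**Figure D1:**
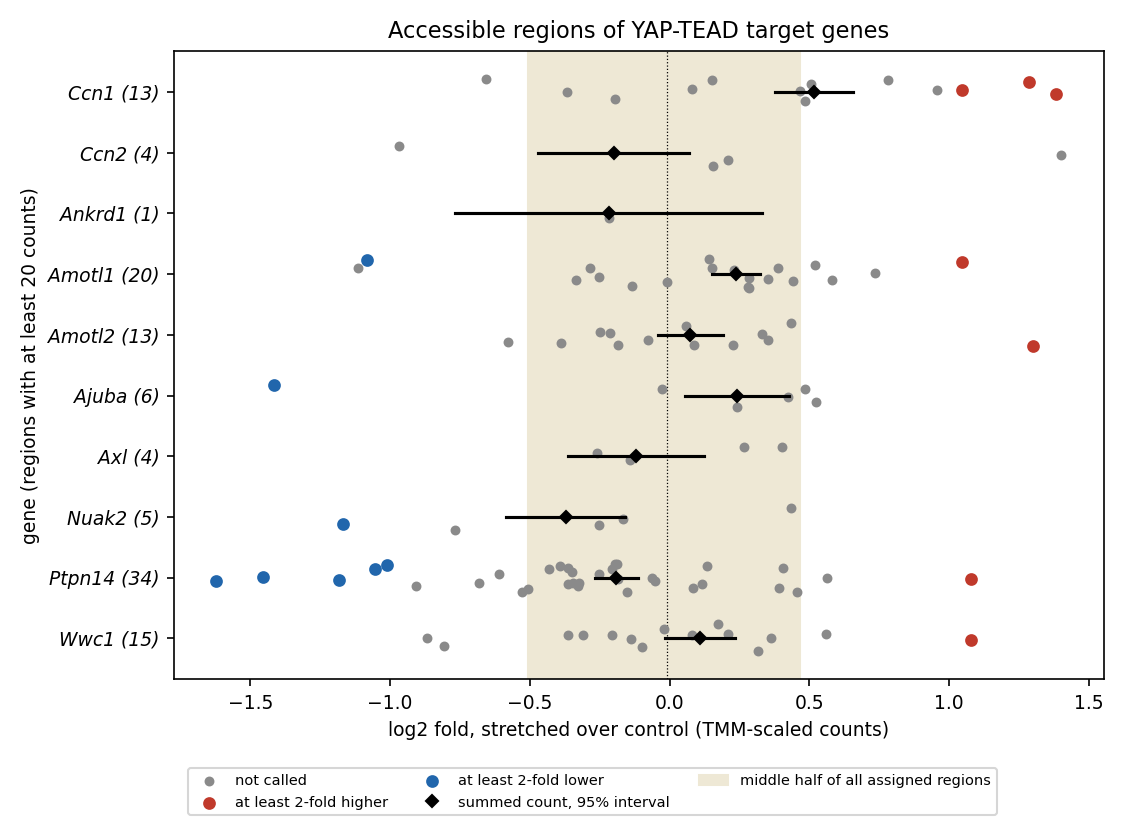
Log2 fold (stretched over control) of each of the 115 regions, by gene, with red points at least 2-fold higher, blue points at least 2-fold lower and grey points not called. Diamonds and bars give the fold of each gene's summed count with its 95% counting interval, shading spans the quartiles of all 81252 assigned regions, and 3 of the 7 red points belong to Ccn1 and 5 of the 8 blue points to Ptpn14.

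Most calls came from weak regions. Of the 15 called regions, 5 of the 7 higher and 7 of the 8 lower ones had fewer than 100 counts. Among member regions with under 100 counts, 9.62% were higher and 13.5% lower, beside 7.39% and 12.3% of all assigned regions of that size. Among those with at least 100 counts the shares were 3.17% and 1.59%, beside 6.11% and 2.84%. In the authors' peak lists, called on each library alone, all 7 higher regions held a listed peak in the stretched library and 3 of them in the control library, whereas all 8 lower regions held one in the control library and 1 of them in the stretched library. The lists and the counts come from the same libraries, so these peaks are no independent support for the calls. The like shares among called regions of all genes were not computed. Over all 115 regions, 95 (82.6%, 74.4 to 89.0) held a peak in the stretched library and 89 (77.4%, 68.7 to 84.7) in the control library, beside 75.1% and 70.3% of all assigned regions. A peak was listed in both libraries at 80 regions, in the stretched library alone at 15 and in the control library alone at 9, beside 14.1% and 9.24% of all assigned regions.

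Ccn1 had the most regions called higher of the 10 genes. It lies at chr3:145646971-145649985 on the minus strand, and its 13 regions summed to 989 stretched and 731 control counts, a fold of 1.43 (1.3 to 1.58). Of these regions 3 were higher and none lower, a pattern (at least 3 higher, none lower) shared by 6.91% of the 1346 genes with 10 to 16 regions. The region 3155 bp upstream of the gene, chr3:145653140-145653711, had 106 stretched and 43 control counts, a fold of 2.60 (1.81 to 3.80), and its listed peak had a summit pileup of 56 fragments in the stretched and 33 in the control library. The region 13241 bp upstream, chr3:145663226-145664032, had 83 stretched and 36 control counts, a fold of 2.44 (1.63 to 3.71). A region 43113 bp upstream, chr3:145693098-145693903, had 43 stretched and 22 control counts (2.07, 1.21 to 3.63). No other protein-coding gene lay closer than 47895 bp to the nearest of these regions, with Znhit6 the next gene there and Ddah1 the next for the farthest.

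The higher counts around Ccn1 lay mainly in a block just upstream. All 5 regions from 3155 to 13241 bp upstream had folds over 1, between 1.38 and 2.60, and summed to 472 stretched and 254 control counts (fold 1.96, 1.68 to 2.30). The 5 regions farther upstream summed to 255 and 266 counts (1.01, 0.850 to 1.21). The first fold was 1.94 times the second (1.53 to 2.46), a ratio that no library scaling can change, and 1.79 and 1.72 times under the lowess and the count and density corrections. The split was chosen after the values were seen. The start-site region, chr3:145648342-145650336, had 200 stretched and 151 control counts (1.40, 1.13 to 1.74). Its authors' fold enrichment over local background was 6.14 at the highest summit in the stretched and 4.88 in the control library. With scaling by all counts the fold of the whole gene was 1.01 (0.918 to 1.11), that of the start region 0.990, and no region of Ccn1 was called higher and 1 was called lower. With the lowess trend removed the gene stood at 1.36 and 4 regions were called higher, while the interval of the start region then held 1 (1.15, 0.923 to 1.43).

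Ccn2, the paralog of Ccn1, had a fold below 1 at the gene itself. The gene lies at chr10:24595442-24598683, and the region over its lower-coordinate end, chr10:24595366-24596577, had 58 stretched and 120 control counts. That fold of 0.511 (0.367 to 0.704) falls just short of the limit for a call, which it passed with scaling by all counts (0.361), without the large regions (0.463) and with the lowess trend removed (0.487). The start-site region of Ccn1 had a fold 2.74 times that of this Ccn2 region (1.85 to 4.08) under any library scaling, and 2.35 and 2.07 times under the 2 trend corrections. The other 3 regions of Ccn2, from 3840 to 13927 bp away, summed to 153 stretched and 136 control counts, a fold whose interval held 1 (1.19, 0.937 to 1.51) and which was 0.841 with scaling by all counts. The gene-end fold was 0.430 times theirs (0.285 to 0.645). The strongest of them, chr10:24590142-24591602, had 115 and 109 counts (1.11, 0.850 to 1.46), and the weakest, with 15 and 6 counts, had a fold of 2.64 whose interval (0.969 to 8.31) held 1. Over all its 4 regions Ccn2 stood at 211 stretched and 256 control counts, a fold of 0.871 (0.722 to 1.05). Across all regions Ccn1 exceeded Ccn2 by a factor of 1.64 (1.33 to 2.03).

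Ankrd1 gave almost no signal. A single region with at least 20 counts was assigned to it, chr19:36128853-36129984, 9009 bp upstream, with 53 stretched and 65 control counts (0.862, 0.588 to 1.26). No merged region overlapped its promoter window, although that window holds the TEAD core at 2 positions. Another region, 449 bp from the gene, had 5 counts in each library.

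Axl and Nuak2, the receptor and kinase genes, had no region called higher. Axl had 4 regions with 263 stretched and 302 control counts (0.920, 0.777 to 1.09). Its start-site region, chr7:25788315-25789664, had 79 and 92 counts (0.907, 0.663 to 1.24), and its strongest region, chr7:25779815-25782316 inside the gene, 128 and 162 (0.835, 0.657 to 1.06). All 4 intervals of Axl held 1. Nuak2 had 5 regions with 321 stretched and 439 control counts, the lowest fold of the 10 genes at 0.773 (0.667 to 0.894). Its region 3035 bp outside the gene, chr1:132312806-132313090, had 16 stretched and 38 control counts and was called lower (0.445, 0.232 to 0.817), a call lost under the count and density correction (0.547, 0.285 to 1.01). A region inside the gene, chr1:132326162-132327359, had 70 and 126 counts (0.587, 0.432 to 0.792), while the strongest one, chr1:132319027-132320095, had 139 and 165 (0.890, 0.705 to 1.12). The region over its lower-coordinate end, chr1:132315810-132316519, had 73 and 92 (0.838, 0.608 to 1.15), and the region 1555 bp past its other end 23 and 18 (1.35, 0.697 to 2.66). The fold of Nuak2 stayed below 1 under every alternative tried, from 0.546 to 0.777.

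Among the genes of the pathway's own regulators, the angiomotin-like pair differed little from each other. Amotl1 had 20 regions with 2283 stretched and 2047 control counts (1.18, 1.11 to 1.25), and Amotl2 had 13 with 1210 and 1215 (1.05, 0.971 to 1.14). The fold of Amotl1 was 1.12 times that of Amotl2 (1.01 to 1.24), and with the lowess trend removed the interval of that ratio held 1 (1.07, 0.970 to 1.19). The strongest region of all 115, chr9:14559343-14560252 inside Amotl1, had 339 stretched and 325 control counts (1.10, 0.944 to 1.29). Amotl1 had 1 region called higher, chr9:14617581-14618277 with 43 and 22 counts (2.07, 1.21 to 3.63), and 1 lower, chr9:14607483-14607954 with 17 and 38 (0.473, 0.250 to 0.858), both inside the gene. The lower call was lost under both trend corrections (0.513 and 0.567), and the higher call under both scalings by totals (1.46 and 1.87). Its start-site region, chr9:14614130-14616383, had 130 and 117 counts (1.17, 0.908 to 1.52). That window is an annotated start within the gene span. At the far end of the span, chr9:14661913-14663513 had 302 and 244 counts (1.31, 1.10 to 1.55), and 12422 bp beyond it chr9:14675396-14676814 had 357 and 278 (1.36, 1.16 to 1.59). The start-site region of Amotl2, chr9:102717169-102719157, was its strongest, with 257 and 213 (1.27, 1.06 to 1.54). The only Amotl2 region called was chr9:102761151-102761831, 27733 bp downstream, with 28 stretched and 12 control counts (2.47, 1.21 to 5.32). The folds of both genes crossed 1 with the scaling, to 0.833 and 0.744 with all counts, and with the count trend removed, to 0.988 and 0.921.

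Ajuba, in a gene-dense stretch of chromosome 14, had 6 regions with 511 stretched and 457 control counts (1.18, 1.04 to 1.34), and 0.836 with scaling by all counts. Its strongest region, chr14:54574147-54574904 inside the gene, had 178 and 159 counts (1.18, 0.95 to 1.47), and its start-site region, chr14:54577347-54578368, had 108 and 85 (1.34, 1.0 to 1.81). A region 2189 bp downstream, chr14:54564706-54565280, had 11 stretched and 31 control counts and was called lower (0.375, 0.170 to 0.766). It lay 9717 bp from the next gene, Haus4.

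Ptpn14 held 34 of the 115 regions and 5 of the 8 called lower, and its start site had a higher fold than the rest of the gene. The gene spans 148480 bp on chromosome 1 (chr1:189728216-189876695, plus strand), and its regions summed to 2482 stretched and 2994 control counts (0.876, 0.830 to 0.924). The start-site region, chr1:189727249-189729016, had 323 stretched and 249 control counts (1.37, 1.16 to 1.62). The 31 other regions inside the gene summed to 2039 stretched and 2649 control counts (0.813, 0.767 to 0.862). The fold at the start was 1.69 times that inside (1.41 to 2.02) under any library scaling, 1.35 times (1.13 to 1.61) with the lowess trend removed and 1.42 times (1.19 to 1.7) under the count and density correction. An interval above 1 at the start together with one below 1 inside was found for 5.87% of the 5941 genes with both kinds of region. The start region by itself was above 1 with TMM but stood at 0.969 with scaling by all counts, 0.998 (0.843 to 1.18) with the lowess trend removed and 0.968 under the other correction, while the regions inside stayed below 1, at 0.575, 0.741 and 0.681.

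The lower regions of Ptpn14 were spread along the gene and not grouped. The strongest, chr1:189761368-189762277, had 100 stretched and 213 control counts (0.496, 0.387 to 0.632), with a listed peak in both libraries. Its summit pileup was 91 fragments in the stretched and 122 in the control library, from lists called on 23876613 and 31944854 fragments. Pileups are not scaled for that depth. The authors' fold enrichment of this peak was instead slightly higher in the stretched library, at 9.02 against 8.61. The weakest, chr1:189742012-189742444, had 8 and 26 counts (0.325, 0.127 to 0.740). The others were chr1:189783011-189783318 with 19 and 55 counts (0.365, 0.205 to 0.625), chr1:189798208-189799159 with 26 and 57 (0.482, 0.291 to 0.779) and chr1:189819990-189820647 with 20 and 48 (0.440, 0.248 to 0.756). With the lowess trend removed the region at 26 and 57 counts fell short of the limit (0.510). Their centres lay 13960 to 92050 bp from the start site, and 4 of the 5 held a listed peak in the control library alone. At 109894 bp from the start, chr1:189837771-189838554 went the other way, with 54 stretched and 27 control counts (2.11, 1.31 to 3.49). Of the 34 regions 26 had a fold under 1, and 10 intervals lay below 1 and 2 above. At least 5 regions lower was found for 24.2% of the 248 genes with 25 to 45 regions. The fold of Ptpn14 lay between 0.619 and 0.900 under the alternatives tried.

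**Figure D2:**
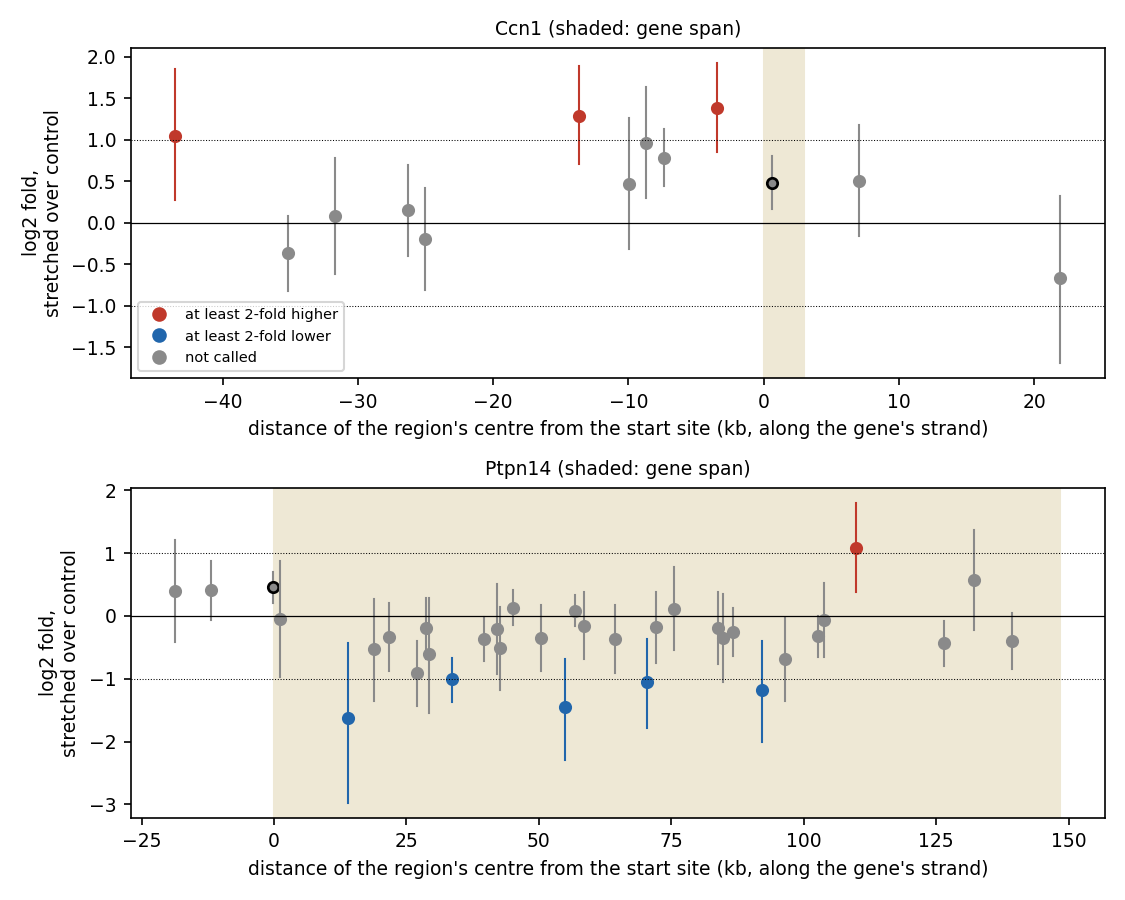
Log2 fold with 95% counting interval (vertical bars) of each region of Ccn1 (upper panel) and Ptpn14 (lower panel) against the distance of its centre from the start site in kb, along the gene's strand. The black ring marks the start-site region, shading the gene span and dotted lines a 2-fold difference; the Ccn1 regions from 3155 to 13241 bp upstream all lie above 0, and most Ptpn14 regions past the start lie below it.

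Wwc1, another long gene (chr11:35838399-35980527, minus strand), had 15 regions with 1047 stretched and 1025 control counts (1.08, 0.989 to 1.18). Its start-site region, chr11:35979206-35980890, had 170 stretched and 122 control counts (1.47, 1.16 to 1.87), the highest fold of the start-site regions and the only one that stayed above 1 with scaling by all counts, at 1.04. The 11 other regions inside the gene summed to 616 and 649 counts (1.0, 0.897 to 1.12), and the start exceeded them by a factor of 1.47 (1.13 to 1.92), whose interval held 1 under the count and density correction (1.23, 0.946 to 1.61). A region inside the gene with the same summed count as the start, chr11:35970622-35971898, had 158 and 134 counts (1.25, 0.984 to 1.58). One weak region, chr11:35852851-35853203, had 26 stretched and 13 control counts and was called higher (2.11, 1.05 to 4.48).

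Among the 8 genes with a promoter window, 7 had a region there, and none of the 7 was called, beside 9.71% of start-site regions of all genes called higher and 2.30% lower. Of the 7, 6 had folds over 1 (69.9% of start-site regions of all genes) and 5 intervals lay above 1 (Ccn1, Amotl2, Ajuba, Ptpn14 and Wwc1). Under either trend correction none of these 5 intervals lay above 1, and the folds ran from 0.972 to 1.26 with the lowess trend removed and from 0.901 to 1.34 under the other. All 7 start-site regions together summed to 1267 stretched and 1029 control counts (1.3, 1.2 to 1.41), with a median fold of 1.34. The 66 other regions inside the same genes summed to 5023 and 5511 (0.963, 0.927 to 1.0). The fold at the starts was 1.35 times that inside (1.23 to 1.48), and 1.23 and 1.2 times under the 2 trend corrections. By gene the ratio was 1.69 (1.41 to 2.02) at Ptpn14, which held 31 of the 66 inside regions, and 1.47 (1.13 to 1.92) at Wwc1. The interval of the ratio held 1 at Ajuba (1.11, 0.794 to 1.54) and at Amotl1 (1.02, 0.783 to 1.34). At Amotl1, on the minus strand, the window lies within the span. Its inside regions therefore include those upstream of the window, among them the region over the upstream end of the span. Higher folds at starts ran through the whole series. Start-site regions of all genes had a median fold of 1.23 and an interval above 1 in 44.4% of 10619 regions. Regions elsewhere had a median of 0.961 and an interval above 1 in 14.8% of 70633. With scaling by all counts 6 of the 7 start-site folds lay below 1, between 0.642 and 0.990. None of the 7 had under 100 counts.

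**Figure D3:**
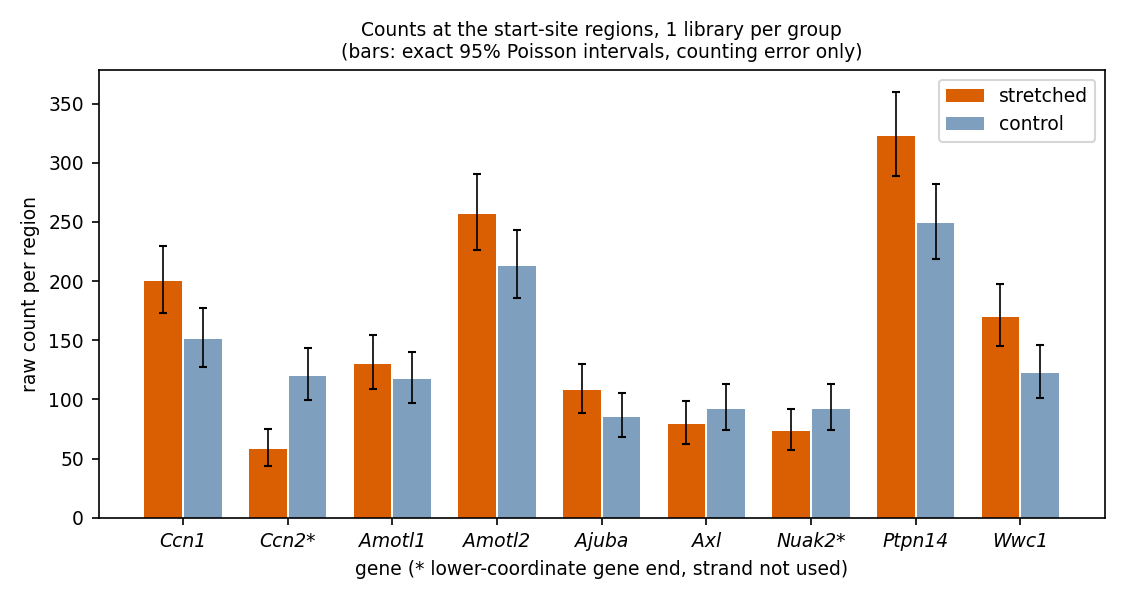
Raw counts in the stretched (left bar) and control (right bar) library at the start-site region of 7 genes and at the lower-coordinate gene end of Ccn2 and Nuak2, with exact 95% Poisson intervals and 1 library per group. The stretched bar is taller at Ccn1, Amotl1, Amotl2, Ajuba, Ptpn14 and Wwc1 and shorter at Ccn2 (58 against 120), Axl and Nuak2.

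**Figure D4:**
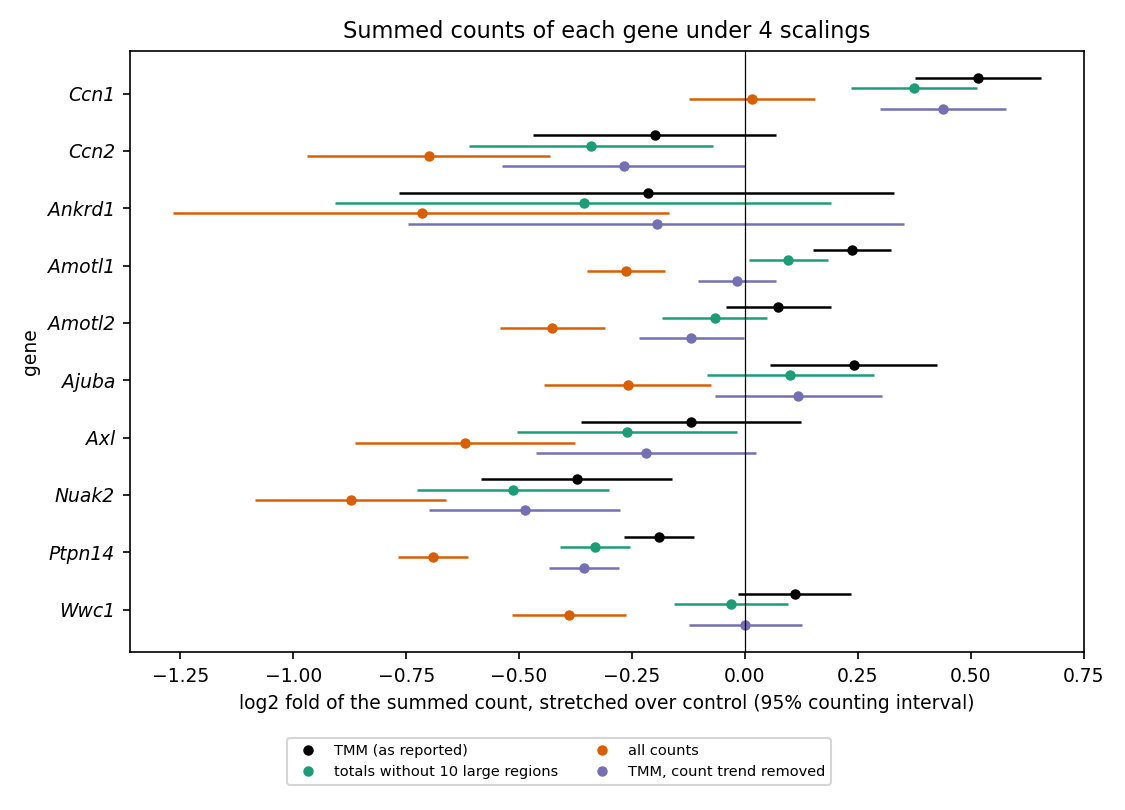
Log2 fold of the summed count of each of the 10 genes, stretched over control, with 95% counting intervals, under TMM, totals without the 10 large regions, all counts, and TMM with the count trend removed. Ccn1 has the highest value of the 10 under each of the 4, while Ccn2, Ankrd1, Axl, Nuak2 and Ptpn14 lie below 0 under each.

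Set by role, the 5 targets that encode secreted, nuclear, receptor or kinase proteins had 27 regions, 3 called higher (all at Ccn1) and 1 lower, with a summed fold of 1.08 (1.01 to 1.16, from 1837 stretched and 1793 control counts). Without Ccn1 the other 4 genes of this group stood at 0.844 (0.770 to 0.924, from 848 and 1062 counts). Ccn1 was left out after its fold, the highest of this group, was seen. A value below 1.08 was therefore fixed by the choice, and the interval does not allow for it. The 5 scaffolds and regulators had 88 regions, 4 higher and 7 lower, and a fold of 1.03 (0.996 to 1.06, from 7533 and 7738 counts). The shares called higher and lower were 11.1% and 3.70% in the first group and 4.55% and 7.95% in the second, beside 6.90% and 8.66% of all assigned regions.

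Further published YAP and TAZ targets, 15 genes with 221 regions, had 17 regions higher and 7 lower, a share of 7.69% and 3.17% beside the 6.90% and 8.66% of all assigned regions, and a median fold of 1.14. The interval of the summed count lay above 1 for 10 of these genes and below 1 for 2, beside 36.1% and 18.6% of all genes. These genes held more regions each on average than all genes (81252 regions over 16949 genes), and intervals narrow with counts. Only TMM was run on this list, and scaling by all counts lowers every log2 fold by 0.50. Rbms3, an RNA-binding protein gene, had more called regions than any other gene of the list, with 6 higher and 1 lower of 44 regions (2485 stretched and 2130 control counts, 1.23, 1.16 to 1.31). Asap1, a GTPase-activating protein gene, had 4 higher and 1 lower of 48 (2631 and 2462 counts, 1.13, 1.07 to 1.19), and Myof, which encodes the membrane repair protein myoferlin, 3 higher and 1 lower of 19 (1428 and 1021 counts, 1.48, 1.36 to 1.60). Foxf2, a forkhead factor gene, had the lowest fold of this list (216 stretched and 356 control counts, 0.641, 0.539 to 0.761), with no region called.

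The genes of the Hippo cascade and its TEAD partners, 23 genes of which 21 had regions, gave 12 higher and 19 lower of 200 regions (6.0% and 9.5%), and a median fold of 0.998. The interval lay above 1 for 10 genes and below 1 for 4, beside 36.1% and 18.6% of all genes. This list too held more regions per gene on average than all genes, which narrows the intervals. Vgll4, which encodes a competitor of YAP for TEAD, had the most called regions, 1 higher and 4 lower of 25 (2334 stretched and 2295 control counts, 1.07, 1.01 to 1.14), followed by the 4 regions higher at Yap1. Tead1, a DNA-binding partner of YAP, had 3 of 24 regions lower (1082 and 1391 counts, 0.822, 0.758 to 0.891), and Frmd6, a FERM protein that acts above the kinases, 3 of 22 (1175 and 1241 counts, 1.0, 0.923 to 1.08). The TEAD genes were split, with Tead4 above 1 (986 and 833 counts, 1.25, 1.14 to 1.37). The interval of Tead3 held 1 (0.929, 0.806 to 1.07), and Tead2 had no region. Tjp1, a tight junction scaffold gene, had 1 higher and 2 lower of 17, and Ppp1r13b 3 lower of 15. Both coactivator genes had intervals above 1, Yap1 (846 stretched and 613 control counts, 1.46, 1.31 to 1.62) and Wwtr1, which encodes TAZ (1180 and 874 counts, 1.43, 1.31 to 1.56), as had Mob1b (1.72), Vgll3 (1.55) and Stk3 (1.48). These intervals were taken under TMM alone. Scaling by all counts was not run on this list, and it took Ccn1, of like fold (1.43), to 1.01 (0.918 to 1.11). The folds of Tead1, Ppp1r13b (0.807), Nf2 (411 and 553 counts, 0.785, 0.690 to 0.894) and Lats2 (135 and 201 counts, 0.710, 0.566 to 0.887), a kinase gene that is itself a target, lay below 1. The highest fold of this list was that of Vgll2, which encodes a TEAD cofactor, with both of its 2 regions higher (119 stretched and 33 control counts, 3.81, 2.57 to 5.79).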

How the data were processed

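Basal cells of back skin from 1 mouse per group were profiled by ATAC-seq. Per the submitters' processing notes, the build was GRCm38 and the tools were MACS2 2.1.0.20151222, HTSeq, Picard, SAMtools and Bowtie2 2.2.6. Per the file headers, the authors called peaks on each library alone (paired fragments, no control file, q cutoff 0.05, 23876613 stretched and 31944854 control fragments). The deposited pileup is a signal in whole fragments, and the deposited fold enrichment is a ratio to local background, as are the deposited significance columns, given as -log10 of the q-value and p-value. The deposited counts are raw counts over the same merged regions in both libraries. Whether these hold duplicates, which counter made them and how Tn5 shifts were treated are not given in the labels or headers used here. Reads carry no molecular identifiers, so counts may not all be independent fragments, and the intervals may be too narrow. With 1 library per group they cover counting error only.

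Each region was assigned to the nearest span of 21900 RefSeq protein-coding genes (GRCm38.p6). Coordinates are printed 1-based, the file starts being 0-based. Folds are stretched over control counts scaled by TMM (edgeR 4.0.16, R 4.3.3), with Clopper-Pearson intervals, and calls needed 20 counts, a 2-fold difference and an interval excluding 1. Ratios of 2 folds have exact conditional intervals. No test was run, each group being a single library. Members, lists and comparisons were chosen with earlier results of these data known. Regions named are those called, the strongest and the start-site region of each gene, and, of other lists, the 3 genes with most called regions with ties. Foxf2, Nf2, Lats2, Vgll2, Vgll3, Wwtr1, Mob1b, Stk3, single marker genes, the far-end regions of Amotl1, the uncalled regions of Nuak2 and Ccn2, and the bounds on region number behind the shares of like genes were chosen after values were seen. So were Tead2, Tead3, Tead4 and the omission of Ccn1 from its group by role. Calls were checked on simulated counts. Alternatives included total scaling, DESeq2 1.42.0 size factors and removal of trends on count and gene density. Intervals used scipy 1.17.1 under Python 3.11.15, trends statsmodels 0.14.6, and figures matplotlib 3.10.9.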

Additional observations from a re-analysis of the deposited data

How the results depend on the processing

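With scaling by all counts, 0 member regions were higher and 20 lower, beside 1.47% and 23.4% of all assigned regions, and the fold of the summed count of all member regions was 0.735. With the counts outside the 10 large regions, 3 were higher, beside 4.63%, and that fold was 0.942. It was 0.927 with the lowess trend on the count removed and 0.915 with the median of like count and gene density removed, against 1.04 as reported. Both scalings by totals lower every fold. Scaling by the fragments behind the peak lists, fewer in the stretched library, would raise the folds and was not tried. Within 10 kb of the gene span, 4 regions were higher (4.17%, beside 6.75%). Assigned by the nearest gene end, 4 were lower (4.17%, beside 8.52%). Without Ptpn14, 3 were lower (3.70%, beside 8.66%) and the fold was 1.11. At a fold limit of 1.5, 13 were lower (11.3%, beside 13.9%). Peaks with -log10 q of at least 5 covered 72.2% of member regions in the stretched and 60.9% in the control library. The shares of all assigned regions at that cutoff were not computed, so this gap cannot be read as particular to the member regions. No fold of a called region changed sign under the scalings and trend corrections tried, but all 7 higher calls were lost with scaling by all counts, 4 of them also without the large regions, and 3 of the lower calls under a trend correction. Ratios of folds under the trend corrections were added after seeing the data. DESeq2 size factors, a minimum of 50 counts, no count minimum, regions with a listed peak alone and, added after seeing the data, omission of start regions kept the counts within 1.5 times those reported. No paired analysis was possible because each group has 1 library. A single library per group and the weak counts of most called regions limit every difference given. The cause of these shifts was not tested.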
